A study of Chlamydomonas reinhardtii with 12 samples.

Results

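Cells of the inositol pyrophosphate-deficient strain vip1-1 were compared with wild-type cells of Chlamydomonas reinhardtii, a unicellular green alga, after growth in high light. The groups compared were vip1-1 high light and wild-type high light, with 3 biological replicates each. All cells were of CC-1690 and were kept in liquid TAP, an acetate-containing medium, at 25 °C. High light was 1500 µmol photons m-2 s-1, and the control light of the other 6 libraries (vip1-1 control and wild-type control, 3 each) was 50 µmol photons m-2 s-1. The duration of the high light is not given in the sources used here. The mutant is represented by a single allele, and no rescued strain was analysed here. The genes compared were those with at least 1 FPKM (an expression level scaled by transcript length and by the mapped fragments of the library) in at least 3 of the 6 high light libraries, which were 11908 of the 17693 genes in the table.

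Inositol pyrophosphates are small signalling molecules in which an inositol ring carries phosphate groups and at least one high-energy diphosphate. They are made by kinases of the VIP and IP6K families, and in plants and fungi they report the phosphate status of the cell through proteins with SPX domains. Light beyond what photosynthesis can use makes algae dissipate the excess as heat, repair photosystem II, change their antenna and membrane lipids and reset nuclear gene expression. The deposited table names genes only by identifiers of the CC-4532 version 6.1 annotation. Of these identifiers 15386 matched a RefSeq locus tag of the version 5.5 assembly, but 0 of the locus tags carried a gene symbol. No gene name or function is therefore given, the expression of the mutated gene could not be used to check the labels, and identifiers are printed without their shared suffix "_4532.v6.1".

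High light libraries of the strains were separated on several measures of the whole library. The FPKM total was 700115 ± 18092 in vip1-1 and 660817 ± 11890 in wild type (SD, n = 3 each; exact two-sided permutation p = 0.1, the smallest that 3 against 3 can give). The 1000 most abundant genes held 85.7% ± 1.45 of the total in vip1-1 and 81.2% ± 1.89 in wild type (exact permutation p = 0.1). The number of genes with at least 1 FPKM was 11147 ± 652 in vip1-1 and 11753 ± 520 in wild type (exact permutation p = 0.3). Values of 0 in 1 library, while the other libraries of its group were at 1 FPKM or more, numbered 177, 6 and 62 in vip1-1 replicates 1, 2 and 3, and 12, 94 and 18 in the wild-type replicates. Summed FPKM of the 74 identifiers of the plastid genome (prefix CreCp) was 69.5, 85.0 and 98.2 in vip1-1 and 174, 561 and 272 in wild type. The part of these library measures in the gene-level results below was not tested. The median SD of a gene between replicates, on the log2(FPKM + 1) scale, was 0.26 in vip1-1 high light and 0.25 in wild-type high light, against 0.12 in vip1-1 control and 0.13 in wild-type control. The high light comparison was therefore fitted on its own 6 libraries.

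In high light 3585 of the 11908 genes differed between the strains (30.1%; limma on log2(FPKM + 1), Benjamini-Hochberg adjusted p under 0.05). Of these, 817 (6.86% of genes tested) were higher in vip1-1 and 2768 (23.2%) were lower. A difference of at least 2-fold was found in 440 of the higher genes (3.69%) and in 1574 of the lower genes (13.2%). Differences of at least 8-fold were few, with 13 genes higher and 25 lower. Because 1 was added to each value before the logarithm, the differences of weakly expressed genes are understated. In bulk RNA, fewer cells with a transcript and less of it per cell cannot be told apart.

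The balance of higher and lower genes depended on the scaling. The median log2 difference of all genes tested was -0.30, and 66.8% of genes were below 0. With the median of every library set to the same level, which raised every difference by 0.34, 2844 genes were called (23.9%), of which 1440 were higher in vip1-1 (12.1%) and 1404 lower (11.8%). All 817 genes called higher as deposited were also called higher after centring, and 1404 of the 2768 lower genes were also called lower. Quantile normalization gave 1399 higher and 1590 lower genes. Genes described by name below passed the threshold in the same direction as deposited and after centring. The number called also moved when 1 library was left out, to 840 without wild-type replicate 1, 1831 without wild-type replicate 3, 1902 without vip1-1 replicate 2 and 2327 without vip1-1 replicate 1.

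**Figure D1:**
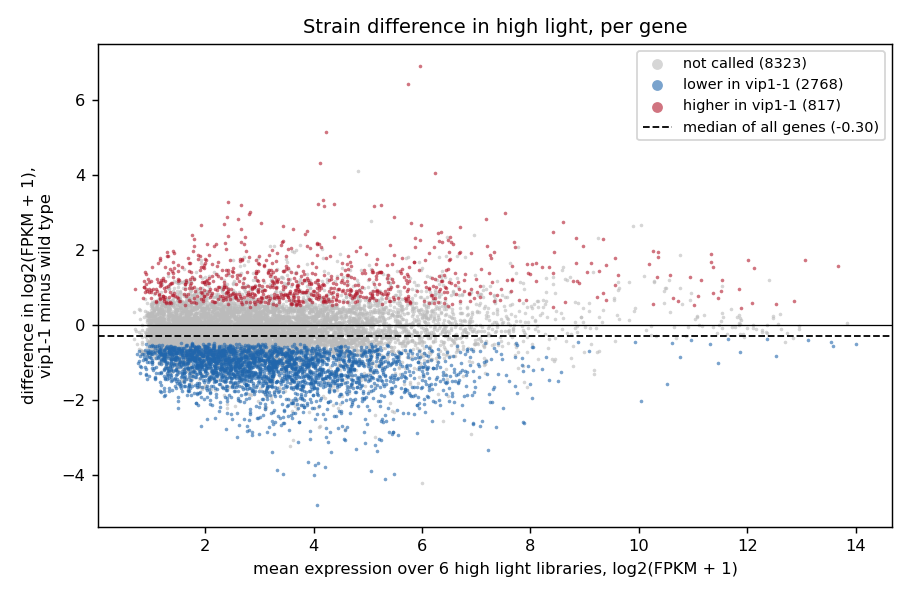
Difference in log2(FPKM + 1) between vip1-1 and wild type in high light (vertical axis, vip1-1 minus wild type) against mean expression over the 6 high light libraries (horizontal axis), with 1 point per gene. The dashed line at -0.30 is the median of all genes. The 2768 genes called lower in vip1-1 outnumber the 817 called higher, except among the most abundant genes at the right.

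The calls were then counted by expression level. Among the 116 genes with a mean of at least 1000 FPKM over the 6 libraries, 29 (25.0%) were higher and 15 (12.9%) lower in vip1-1, against 6.86% and 23.2% of all genes. After centring the lower calls in this class numbered 2 (1.72%), and the higher calls 32 (27.6%). Among the 442 genes from 100 to 1000 FPKM, 16.5% were higher and 18.1% lower. In the 4291 genes from 3 to 10 FPKM, 5.08% were higher and 24.8% lower. The median difference was 0.17 in the most abundant class, 0.06 from 100 to 1000 FPKM, and -0.37 from 3 to 10 FPKM. FPKM values are scaled by the mapped fragments of the library, so more fragments from abundant genes and fewer from the others cannot be told apart.

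**Figure D2:**
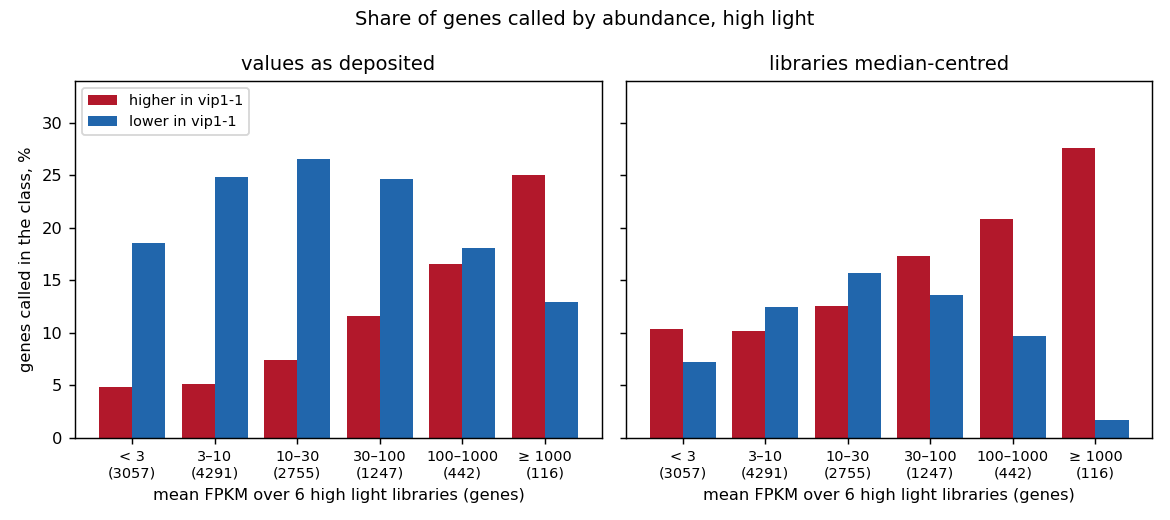
Percentage of genes called higher (red) or lower (blue) in vip1-1 in high light (vertical axis) in 6 classes of mean FPKM over the 6 high light libraries (horizontal axis, number of genes in brackets), with values as deposited (left) and with each library centred on its median (right). The share of higher genes is largest in the class of at least 1000 FPKM in both panels, at 25.0% and 27.6%, while the share of lower genes there is 12.9% and 1.72%.

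The most abundant gene called under both scalings, chosen after its values were seen, was Cre17.g738300. It had 20004, 19555 and 18867 FPKM in vip1-1 high light, against 6284, 5609 and 8199 FPKM in wild-type high light. Each vip1-1 library was thus far above each wild-type library, and the log2 difference was 1.56 (SE 0.16, limma adjusted p 0.00455). The strains also differed in control light in this gene, at 24469, 19694 and 25267 FPKM in vip1-1 and 11507, 10742 and 10351 FPKM in wild type (log2 difference 1.08, limma adjusted p 0.000343). Of the abundant genes called lower under both scalings, Cre10.g452350 had the highest mean. It had 439, 734 and 1106 FPKM in vip1-1 high light, against 2189, 2626 and 1648 FPKM in wild-type high light (log2 difference -1.58, SE 0.35, limma adjusted p 0.0210). Its adjusted p was 0.0581 without vip1-1 replicate 2 and 0.0793 without wild-type replicate 1.

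The genes with the largest differences were then examined among those whose groups did not overlap and that had no value of 0. Without any call, groups did not overlap in 49% of genes tested (13.1% higher and 35.8% lower in vip1-1). For 773 genes the higher call and for 1331 genes the lower call met these conditions under both scalings. The 10 with the largest log2 difference in each direction ranged from 2.95 to 4.04 among the higher genes (adjusted p 0.00226 to 0.0324) and from -3.99 to -3.14 among the lower genes (adjusted p 0.00160 to 0.0383, limma). Of these, Cre12.g546550, Cre02.g088551 and Cre01.g015451 were under 1 FPKM in all high light libraries of 1 strain. They passed the filter of at least 1 FPKM only through the strain in which they were higher.

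Cre05.g238311 had the largest positive difference. It stood at 87.5, 171 and 162 FPKM in vip1-1 high light, against 5.28, 15.9 and 4.32 FPKM in wild-type high light (log2 difference 4.04, SE 0.49, limma adjusted p 0.00573). Its control values were 40.5, 52.9 and 49.2 FPKM in vip1-1 and 11.8, 11.9 and 7.69 FPKM in wild type, so vip1-1 was the higher strain in both light levels. Cre03.g197750 had the same order, with 40.7, 30.04 and 24.5 FPKM in vip1-1 and 2.61, 1.99 and 2.01 FPKM in wild type in high light (log2 difference 3.33, SE 0.22, limma adjusted p 0.00243). Cre10.g422300 had 29.7, 35.6 and 30.7 FPKM in vip1-1 high light and 2.44, 2.14 and 3.49 FPKM in wild-type high light (log2 difference 3.17, SE 0.19, limma adjusted p 0.00226). Its control values were 24.5, 27.1 and 25.4 FPKM in vip1-1 and 4.74, 5.25 and 5.09 FPKM in wild type. For these 3 genes vip1-1 was also higher in control light, by 2.095, 1.98 and 2.14 on the log2 scale. Of the 10 higher genes, 7 were also called higher in control light as deposited, against 12.5% of all genes. Besides the 3 above they were Cre05.g242400, Cre10.g463370, Cre07.g325734 and Cre06.g284600. After centring these were again 7, against 27.9% of all genes. Of all genes called higher in high light, 53.2% as deposited and 71.4% after centring had the same call in control light.

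Other genes of this group had their lowest values in wild-type high light and were well expressed in all control libraries. Cre05.g242400 had 83.5, 53.6 and 63.2 FPKM in vip1-1 high light and 8.24, 4.04 and 7.29 FPKM in wild-type high light (log2 difference 3.19, SE 0.29, limma adjusted p 0.00417). Its control libraries lay at 63.9, 71.2 and 64.1 FPKM in vip1-1 and 35.8, 42.5 and 46.9 FPKM in wild type. Cre10.g463370 had 52.8, 31.6 and 25.2 FPKM in vip1-1 high light, against 4.14, 2.39 and 2.22 FPKM in wild-type high light. Its control values were 96.3, 75.2 and 104 FPKM in vip1-1 and 47.2, 48.8 and 41.6 FPKM in wild type. The high light libraries of both strains were thus below their controls, and those of wild type were lower still. Cre07.g325734 had 29.8, 40.6 and 16.5 FPKM in vip1-1 high light and 1.2003, 6.69 and 0.655 FPKM in wild-type high light. It did not pass the threshold without wild-type replicate 1 (adjusted p 0.0613).

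Cre12.g546600 and Cre12.g546550 are next to each other on chromosome 12 of the version 5.5 assembly and had a similar pattern. Cre12.g546600 had 139, 33.1 and 17.2 FPKM in vip1-1 high light and 2.15, 6.67 and 3.94 FPKM in wild-type high light. Cre12.g546550 had 27.5, 4.73 and 4.01 FPKM in vip1-1 high light, against 0.112, 0.253 and 0.160 FPKM in wild-type high light. In both genes vip1-1 replicate 1 was several times above the other vip1-1 replicates. In control light these genes were not called, and Cre12.g546600 had 204, 296 and 228 FPKM in vip1-1 and 286, 400 and 246 FPKM in wild type. The call of Cre12.g546600 was lost without vip1-1 replicate 2 (adjusted p 0.0576), wild-type replicate 1 (0.0908) or wild-type replicate 3 (0.0705), and that of Cre12.g546550 without wild-type replicate 1 (0.0726) or 3 (0.0575).

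Cre02.g088551 was called in the opposite direction in control light as deposited, but not after centring. It had 11.8, 12.1 and 10.4 FPKM in vip1-1 high light, against 0.658, 0.322 and 0.892 FPKM in wild-type high light (log2 difference 2.95, SE 0.19, limma adjusted p 0.00226). In control light vip1-1 was the lower strain, at 4.80, 4.02 and 4.12 FPKM, against 6.48, 6.79 and 6.28 FPKM in wild type (log2 difference -0.50, limma adjusted p 0.00430). After centring the control difference was -0.18 (limma adjusted p 0.143). Cre06.g284600 had 359, 309 and 251 FPKM in vip1-1 high light and 31.3, 134 and 12.2 FPKM in wild-type high light, with a log2 difference of 2.98. Its call was lost in the 5 fits that left out any library other than wild-type replicate 2 (adjusted p 0.0633 to 0.107) and with no filter on low values (0.0519). The log2 difference in those 5 fits was 2.204 to 3.11.

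**Figure D3:**
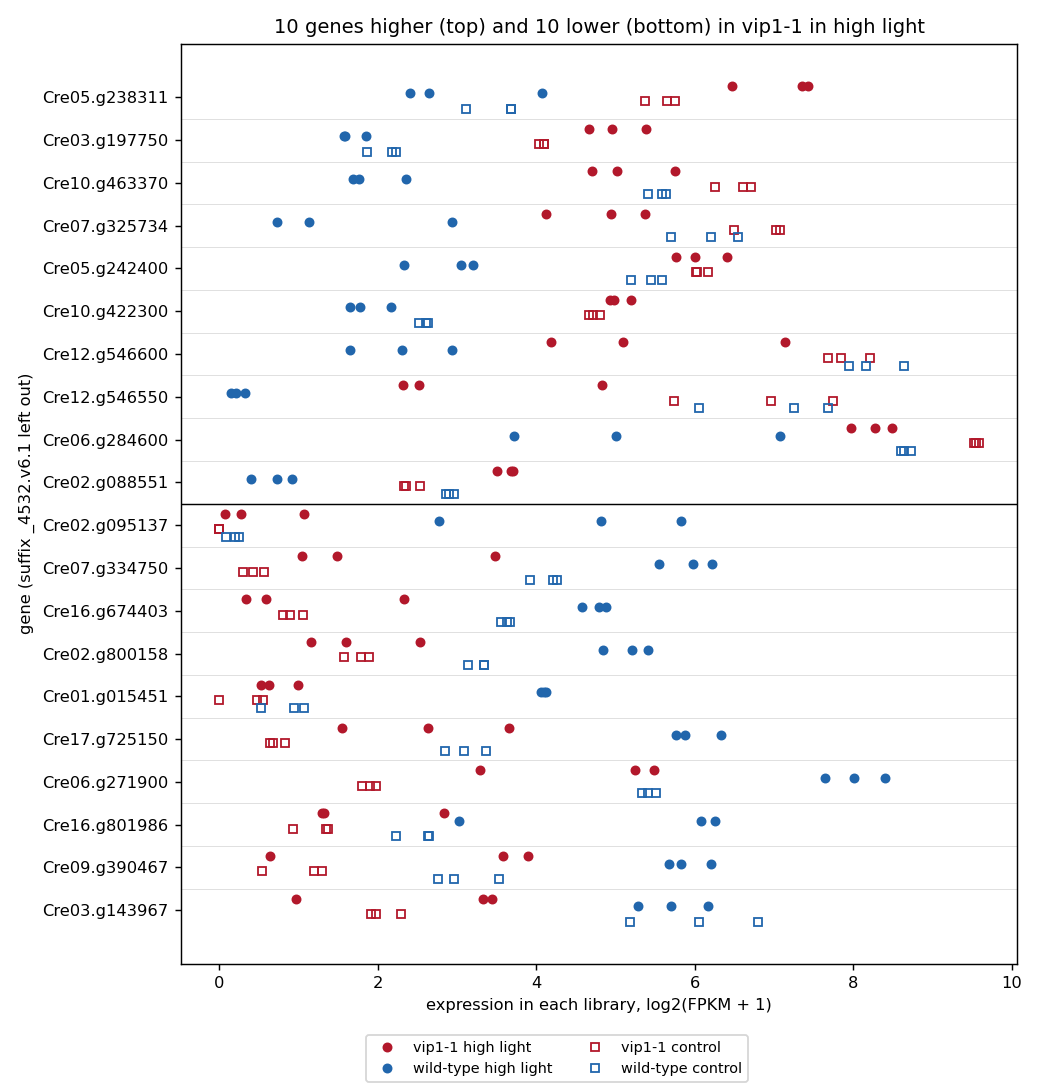
Expression in each library as log2(FPKM + 1) (horizontal axis) of the 10 genes with the largest positive (top) and the 10 with the largest negative (bottom) difference between vip1-1 and wild type in high light. Filled circles are high light libraries and open squares control libraries, red for vip1-1 and blue for wild type. In high light the strains do not overlap in any of the 20 genes, which the rule that chose them required.

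Among the lower genes, Cre02.g095137 had 0.0528, 0.216 and 1.11 FPKM in vip1-1 high light and 55.6, 5.85 and 27.2 FPKM in wild-type high light (log2 difference -3.99, SE 0.75, limma adjusted p 0.0127). Its control libraries were listed at 0 in vip1-1 and at 0.0678, 0.196 and 0.155 FPKM in wild type. Only the wild-type high light libraries thus exceeded 2 FPKM. Cre01.g015451 had the smallest spread, at 0.997, 0.548 and 0.444 FPKM in vip1-1 high light against 16.1, 16.4 and 15.7 FPKM in wild-type high light (log2 difference -3.38, SE 0.18, limma adjusted p 0.00160). Its control values were 0.400, 0 and 0.471 FPKM in vip1-1 and 1.1002, 0.921 and 0.443 FPKM in wild type, and that difference was not called (limma adjusted p 0.0631). Cre02.g800158 had 1.24, 2.05 and 4.79 FPKM in vip1-1 high light and 41.5, 27.8 and 36.1 FPKM in wild-type high light. Its control values were 1.98, 2.47 and 2.71 FPKM in vip1-1 and 7.83, 9.11 and 9.15 FPKM in wild type.

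Like Cre02.g800158, other genes were lower in vip1-1 in both light levels. Cre07.g334750 had 1.06, 1.80 and 10.2 FPKM in vip1-1 high light and 73.5, 61.9 and 45.7 FPKM in wild-type high light (log2 difference -3.91, SE 0.62, limma adjusted p 0.00857). In control light it had 0.485, 0.350 and 0.229 FPKM in vip1-1 and 14.1, 17.5 and 18.3 FPKM in wild type (log2 difference -3.70). Replicate 3 of vip1-1 stood above the other vip1-1 replicates in high light but below every wild-type high light library. Cre06.g271900 had 8.81, 36.9 and 43.8 FPKM in vip1-1 high light and 258, 338 and 199 FPKM in wild-type high light (log2 difference -3.35, SE 0.58, limma adjusted p 0.0105). Its log2 difference in control light was -3.52, and its high light call was lost without wild-type replicate 1 (adjusted p 0.0513). Cre16.g674403 had 0.267, 0.512 and 4.04 FPKM in vip1-1 high light and 26.6, 28.4 and 23.0 FPKM in wild-type high light (log2 difference -3.66, limma adjusted p 0.00651). Of the 10 lower genes, 9 were also called lower in control light as deposited, against 43% of all genes. After centring these were 8, against 19.2% of all genes, since Cre02.g095137 was no longer called (control log2 difference 0.14, limma adjusted p 0.0762). That gene was at 0 in all vip1-1 control libraries and at 0.196 FPKM or less in wild-type control. Centring shifts values of 0 as well, so the sign of 0.14 does not make vip1-1 the higher strain. Of all genes called lower in high light, 76.0% as deposited and 60.4% after centring had the same call in control light.

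The calls of the last 3 of the 10 lower genes depended on single libraries. Cre16.g801986 had 6.16, 1.45 and 1.51 FPKM in vip1-1 high light and 75.5, 7.14 and 66.5 FPKM in wild-type high light, so wild-type replicate 2 lay close to vip1-1 replicate 1. Its call was lost without vip1-1 replicate 2 (adjusted p 0.105) or 3 (0.0966) and without wild-type replicate 1 (0.126) or 3 (0.115), and with no filter on low values (0.0607). Cre09.g390467 had 0.564, 11.0 and 13.9 FPKM in vip1-1 high light and 50.3, 55.7 and 73.0 FPKM in wild-type high light. It did not pass without vip1-1 replicate 2 (adjusted p 0.0518) or without any one of the wild-type replicates 1, 2 and 3 (0.0908, 0.0602 and 0.0922). It also did not pass with a pseudocount of 0.1 (0.0555) or with no filter on low values (0.0507). Cre03.g143967 had 0.967, 9.87 and 9.06 FPKM in vip1-1 high light and 70.7, 51.1 and 38.1 FPKM in wild-type high light, and was not called without wild-type replicate 1 (0.0756). In Cre09.g390467 and Cre03.g143967 vip1-1 replicate 1, the library with the most isolated values of 0, was the lowest. The same library was also the lowest in Cre02.g095137, Cre07.g334750, Cre16.g674403, Cre02.g800158, Cre17.g725150 and Cre06.g271900. Among the vip1-1 high light libraries it was the highest in Cre01.g015451 and Cre16.g801986.

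Calls of neighbouring genes were compared as a description. In the order of genes along the chromosomes of the version 5.5 assembly there were 7525 neighbouring pairs with both genes tested. After a gene called lower under both scalings the next gene was called lower in 15.5% of cases, against 10.6% for the next gene of any pair. For higher genes these shares were 10.2% and 7.08%. Pearson's r of the log2 difference between neighbours was 0.11 across these pairs, which share all 6 libraries. Runs of at least 3 adjacent genes that were called under both scalings in 1 direction and differed at least 2-fold numbered 12, of which 11 were lower in vip1-1, and none was longer than 3. Of all 11908 genes tested, 1293 met these conditions as lower genes and 440 as higher genes. More lower than higher runs would follow from these counts alone, and clustering beyond them was not tested.

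One such run on chromosome 17, chosen after its values were seen because it holds a gene described by the rule, consists of Cre17.g725150, Cre17.g725200 and Cre17.g725250. Cre17.g725150 had 1.93, 5.21 and 11.6 FPKM in vip1-1 high light and 79.3, 57.6 and 53.3 FPKM in wild-type high light (log2 difference -3.37, SE 0.51, limma adjusted p 0.00777). Cre17.g725200 had 21.0, 19.8 and 27.2 FPKM in vip1-1 high light and 81.0, 72.1 and 81.9 FPKM in wild-type high light (log2 difference -1.75, SE 0.18, limma adjusted p 0.00466). Cre17.g725250 was weakly expressed, at 0.630, 2.53 and 2.04 FPKM in vip1-1 high light and 4.82, 4.04 and 6.13 FPKM in wild-type high light. Its log2 difference was -1.19 (limma adjusted p 0.0347), and the call was lost without vip1-1 replicate 3 (0.0566) and without wild-type replicate 1 (0.106) or 3 (0.106). It was also lost with a pseudocount of 0.1 (0.0535), with no filter on low values (0.0551) and with a scaling that ignores the 1000 most abundant genes (0.0504). In control light the log2 differences of these 3 genes were -2.38, -1.37 and -1.32. Across the 17 chromosomes the share of genes called lower ranged from 20.6% on chromosome 12 to 28.4% on chromosome 15, and the share called higher from 5.86% on chromosome 13 to 8.67% on chromosome 6, so calls in each direction occurred on every chromosome.

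Some genes were listed at 0 in every high light library of 1 strain. Since a listed 0 may stand for a level that was not estimated, these genes are given here by their values and without a fold. There were 10 genes at 0 in all wild-type high light libraries and at 1 FPKM or more in all vip1-1 high light libraries, and 12 with the opposite pattern. All of them passed the filter of at least 1 FPKM only through the strain that was not at 0. Cre12.g537611 had 159, 128 and 81.3 FPKM in vip1-1 high light and was listed at 0 in the wild-type high light libraries. Under control light this gene had 128, 117 and 137 FPKM in vip1-1 and was again listed at 0 in all wild-type libraries, so all its values above 0 were from vip1-1. Cre11.g801308 had 10.3, 9.60 and 6.42 FPKM in vip1-1 high light and was at 0 in wild-type high light, with 6.20, 6.77 and 6.60 FPKM in vip1-1 control and 0.599, 0.680 and 0.765 FPKM in wild-type control. Cre03.g800400 was at 0 in vip1-1 high light and had 13.2, 55.2 and 25.9 FPKM in wild-type high light. In the control libraries it had 0, 0.137 and 1.25 FPKM in vip1-1 and 3.47, 4.74 and 2.32 FPKM in wild type. Of the 12 genes at 0 in vip1-1 high light, 8 were also at 0 in all vip1-1 control libraries, and of the 10 at 0 in wild-type high light, 3 were at 0 in all wild-type control libraries.

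The strain difference in high light was set beside that in control light, which was fitted on the 6 control libraries and shares no library with it. In control light 55.5% of the same 11908 genes were called (limma adjusted p under 0.05), with 1486 higher in vip1-1 (12.5%) and 5123 lower (43%). The median SD between replicates was 0.12 and 0.13 in the control groups, against 0.26 and 0.25 in the high light groups. The numbers called therefore do not compare the size of the strain difference between light levels. Its median over all genes was -0.27 in control light and -0.30 in high light. Of the 817 genes higher in high light, 435 (53.2%) were also higher in control light, which is 29.3% of the genes higher there. Of the 2768 genes lower in high light, 2104 (76.0%) were also lower in control light, or 41.1% of the genes lower there. With each library centred, 71.4% of the 1440 higher genes and 60.4% of the 1404 lower genes had the same call in control light, in which 27.9% and 19.2% of all genes were called. Across genes, Pearson's r between the log2 differences of the light levels was 0.58 (11908 genes, which are not independent replicates).

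**Figure D4:**
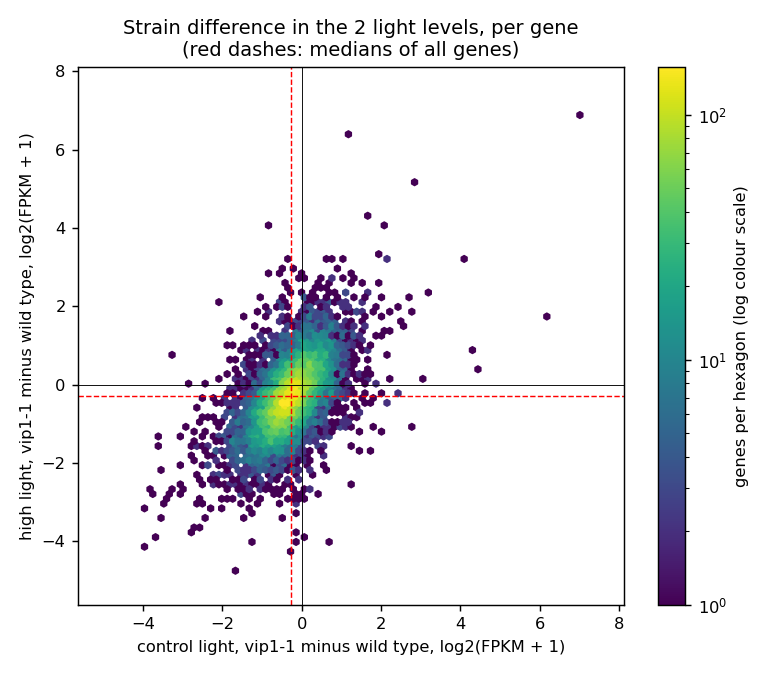
Strain difference (vip1-1 minus wild type, log2(FPKM + 1)) in high light (vertical axis) against that in control light (horizontal axis) for 11908 genes. Colour gives the number of genes per hexagon on a log scale, and the red dashes mark the medians of -0.30 in high light and -0.27 in control light. Of all genes, 71.6% lie above both medians or below both (Pearson's r 0.58), and the far upper right point is Cre12.g537611.

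Whether the difference itself changed with light was tested by the interaction, with all 12 libraries in 1 fit. There were 1063 such genes (8.93%; adjusted p under 0.05, limma), 433 with a more positive difference in high light (3.64%) and 630 with a more negative one (5.29%). This number depended on each of several libraries: it fell to 518 when wild-type control replicate 2 was left out and was 1923 when wild-type high light replicate 2 was left out. The other libraries that moved it by more than 1.5 times were wild-type high light replicate 1 (564), vip1-1 high light replicate 2 (694), wild-type control replicates 1 and 3 (561 and 543) and vip1-1 control replicates 1, 2 and 3 (519, 608 and 540). In 33 genes the strains differed in opposite directions in the light levels under both scalings, and in all 33 the interaction passed the threshold. In high light 15 of them were higher and 18 lower in vip1-1. A change of side is itself a large interaction, so that count is no independent evidence.

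The 4 of these with the largest interaction were chosen after their values were seen. Cre06.g309000 had 250, 286 and 217 FPKM in vip1-1 high light and 47.8, 36.1 and 23.5 FPKM in wild-type high light (log2 difference 2.82, SE 0.28, limma adjusted p 0.00455). In control light it had 193, 173 and 176 FPKM in vip1-1 and 317, 348 and 324 FPKM in wild type, so the strains exchanged places without overlap. Cre13.g570851 had 74.7, 165 and 149 FPKM in vip1-1 high light and 21.6, 40.9 and 17.8 FPKM in wild-type high light. Its control values were 397, 372 and 326 FPKM in vip1-1 and 776, 633 and 888 FPKM in wild type, and its high light call was lost without wild-type replicate 1 (adjusted p 0.0575). Cre08.g365900 had 2.11, 6.42 and 7.21 FPKM in vip1-1 high light and 0.765, 1.03 and 0.394 FPKM in wild-type high light, while its control values were 9.91, 13.5 and 12.9 FPKM in vip1-1 and 35.7, 33.7 and 31.5 FPKM in wild type. Both strains had lower values in high light than in control light in Cre13.g570851 and Cre08.g365900. The high light call of Cre08.g365900 was lost without vip1-1 replicate 2 (adjusted p 0.0661) or 3 (0.0522) and without wild-type replicate 1 (0.0762) or 3 (0.0688).

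Cre01.g032650 changed sides the other way. It had 31.8, 47.6 and 19.0 FPKM in vip1-1 high light and 88.1, 121 and 105 FPKM in wild-type high light (log2 difference -1.72, SE 0.34, limma adjusted p 0.0140). In control light it had 127, 140 and 87.4 FPKM in vip1-1 and 31.5, 41.2 and 52.5 FPKM in wild type (log2 difference 1.48, limma adjusted p 0.00205). The mutant was thus lower in high light and higher in control light, with no overlap in either. Without wild-type high light replicate 1 the adjusted p in high light was 0.0523.

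Identifiers of the organelle genomes were counted separately. Of the 20 plastid identifiers tested, 4 were lower and 0 higher in vip1-1 as deposited, against 23.2% and 6.86% of all genes. After centring 4 were lower, against 11.8% of all genes. The median log2 difference of the 20 was -0.88. Of the 4 mitochondrial identifiers tested (prefix CreMt), 2 were lower as deposited and 1 after centring. The libraries were made from poly(A) RNA, and organelle transcripts of this alga mostly lack long poly(A) tails.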

How the data were processed

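Poly(A) RNA of 12 libraries was sequenced from stranded mRNA libraries, per the labels' protocols. The authors deposited 1 table of FPKM values per gene and library; HISAT2 and StringTie are named in the submitters' processing notes, and their settings, filters and read depth are not given in the sources used here. Depth is unknown, so no counting interval is given and precision rests on the replicates. The labels call the replicates biological and do not say how cultures were separated.

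The logarithm log2(FPKM + 1) was used throughout. Genes with at least 1 FPKM in at least 3 of the 6 high light libraries were tested with limma 3.58.1 in R 4.3.3 (moderated, with a variance trend, two-sided, Benjamini-Hochberg over all 11908 genes, threshold 0.05). High light and control libraries were fitted separately because high light replicates varied more; the interaction used all 12. The fit was tested on simulated data. Single library measures used exact permutation tests. Same-numbered high light replicates did not all deviate together (r of -0.06, -0.13 and 0.21 for replicates 1, 2 and 3), so numbers were not used to pair them. The members, tests and named-gene rule were chosen with earlier results of these data known. That rule took the 10 largest log2 differences in each direction among genes called as deposited and after median centring, with no overlap of groups and no 0, and up to 2 genes per direction at 0 in 1 strain and at 5 FPKM or more in the other. Gene lists by symbol could not be used, since no symbol was available. Plots were made in Python 3.11.15 (matplotlib 3.10.9).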

Additional observations from a re-analysis of the deposited data

Results flagged for a closer look

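In 15 of the genes described by name the strain difference in high light differed from that in control light by the interaction term (limma, all 12 libraries, adjusted p under 0.05), against 8.93% of all genes tested. They were chosen for their high light difference or for a change of side, so this share is not independent evidence. The interaction, the log2 difference in high light minus that in control light, was positive in Cre06.g309000 (3.69), Cre12.g546600 (3.51), Cre02.g088551 (3.45), Cre13.g570851 (3.30) and Cre08.g365900 (3.16). It was also positive in Cre05.g242400 (2.53), Cre10.g463370 (2.25), Cre03.g197750 (1.35), Cre11.g801308 (1.101) and Cre10.g422300 (1.03). It was negative in Cre02.g095137 (-3.81), Cre01.g032650 (-3.20), Cre03.g800400 (-3.11), Cre01.g015451 (-2.88) and Cre02.g800158 (-1.87). Cre11.g801308 was listed at 0 in all wild-type high light libraries, and Cre03.g800400 in all vip1-1 high light libraries. A listed 0 may stand for a level that was not estimated. The interaction test therefore cannot decide whether the strain difference of Cre11.g801308 and Cre03.g800400 changed with light. Their values above are those of the fit and are not read as folds. Cre02.g095137 and Cre01.g015451 also include values listed at 0, and Cre02.g088551 and Cre08.g365900 include values under 1 FPKM. The size of the interaction of every gene with a 0 or a value under 1 FPKM depends on the pseudocount of 1. With a pseudocount of 0.1 the high light log2 difference of Cre02.g095137 was -5.75 (-3.99 with 1), and that of Cre01.g015451 was -4.48 (-3.38 with 1). That of Cre02.g088551 was 4.08 (2.95 with 1).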

How the results depend on the processing

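The number of genes called in high light (3585) was 7397 with library quality weights, whose estimation stopped before it converged, 5780 with all 12 libraries in the fit, and 2123 with a replicate block. The higher genes (817) numbered 2168, 1499 and 473 under these settings, and the lower genes (2768) 5229, 4281 and 1650. Centring on the median gave 1440 higher and 1404 lower genes, quantile normalization 1399 and 1590, and a scaling that ignores the 1000 most abundant genes 1317 and 1747. A filter on a mean of at least 5 FPKM, which tests fewer genes, left 1802 lower genes. Apart from the construction of these settings, the cause of each move was not tested. Leaving out 1 library gave 840 to 3969 called, 162 to 874 higher and 678 to 3095 lower genes, and 828 to 2449 called genes that differed at least 2-fold (2014 with all 6). It gave 518 to 1923 interaction genes and 5256 to 6323 genes in control light. Same-numbered replicates were not linked by the labels, and not every library correlated best with its own number, so calls lost under the block say nothing of weaker effects; among named genes these were Cre12.g546600 (adjusted p 0.0510) and Cre17.g725250 (0.0579). The 31 genes described by name kept their direction under every alternative run. Their calls held in 545 of 586 alternative values, and of the 41 lost, 32 were lost on leaving out 1 library, 13 of them wild-type high light replicate 1. Depth is unknown, so what it limits could not be given. Checks that need gene symbols were not run.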
